A study of Homo sapiens with 21 samples.

Results

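The cornified envelope genes examined here are 10 genes, chosen by symbol: the small proline-rich genes SPRR1A, SPRR1B, SPRR2A, SPRR2D and SPRR3, involucrin (IVL), transglutaminase 1 (TGM1), cornifelin (CNFN), alpha-2-macroglobulin-like 1 (A2ML1) and cystatin A (CSTA). All 10 were found among the 23201 gene symbols of the expression table. The cornified envelope is a protein shell that differentiating squamous cells build beneath the plasma membrane. Involucrin is laid down early as a scaffold, small proline-rich proteins and loricrin are added to it, and transglutaminases join these proteins by covalent crosslinks. The program is best known from the epidermis and other stratified epithelia, and cultured basal-type mammary epithelial cells share keratins with the basal layer of those epithelia.

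The cells were HMLE, a human mammary epithelial line that was immortalized and is an established model, sampled untreated (d0) and 1, 4, 7, 10, 15 and 20 days into induction with TGFβ, a cytokine that drives epithelial cells into an epithelial-mesenchymal transition (EMT). RNA-seq gave 21 libraries, 3 for each of 7 timepoints, from this single line with no other genotype. No untreated cells of the later days were among the groups, so time in culture and treatment cannot be told apart. The study calls the libraries of a timepoint biological triplicates, and p-values measure the spread between them.

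Values are given as deposited, with the form of reads over a size factor of each library, and libraries held between 18847917 and 22667754 recovered reads. Libraries are numbered by column within a timepoint as a name only. At d7, library 3 stood apart: it differed from the other d7 libraries by a root mean square of 0.47 and 0.46 on the log2 scale, against 0.22 between those libraries and 0.21 to 0.24 over the 18 pairs at other timepoints. All 10 members were lowest there among the d7 libraries, as were 41.7% of the 13343 genes tested. Summed over KRT5, KRT14, TP63, CDH1, EPCAM and ITGA6, basal mammary epithelial markers reached 308577 to 328259 at d0 and 201530 to 523905 afterwards. KRT5 and KRT14 made up most of that sum, averaging 224349 and 72774 at d0. EPCAM fell from d4 on, KRT5 at d10 and d20 and CDH1 at d20. ITGA6 rose at d1, d4, d10 and d20 and KRT14 at d7, though with rescaled totals none of these markers rose at d7 or d20. The TGFβ responders SMAD7, FN1 and VIM rose on all 6 days. Among 5 markers of blood, vessel and fat cells, PTPRC and CD3E had at most 1 read in any library, and the sum of the 5 was 53.4 to 59.4 at d0 and 14.6 to 30.8 on treated days. PECAM1 alone averaged 41.3 at d0 and 9.06 to 14.7 on treated days. The sum was lower where most members were lower, and its part in their changes was not tested. In bulk RNA, fewer cells of a type and less RNA per cell cannot be told apart.

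IVL rose on every day of TGFβ, except that at d15 it was just under 2-fold once totals were rescaled. SPRR1A and TGM1 fell on every day, SPRR1B from d4 and A2ML1 from d7 on, CNFN fell at d4 and d10, and CSTA stayed within 2-fold. SPRR2D was also lower on every day, but it passed the filter on low values only through its untreated libraries. IVL, near 109 before treatment, was 12.2-fold higher after 1 day of TGFβ and stayed above every untreated library on all 6 treated days. Summed over the 8 members other than IVL and CSTA, the values were 1568 ± 14.6 in untreated cells, 707 ± 40.7 on d1 and 168 ± 10.8 on d20 (SD, n = 3), which is 10.7% of the untreated level. IVL made up 6.49% ± 0.935 of the summed values of the 9 members other than CSTA at d0, 65.3% ± 0.813 at d1 and 79.5% ± 1.42 at d20 (SD, n = 3).

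**Figure D1:**
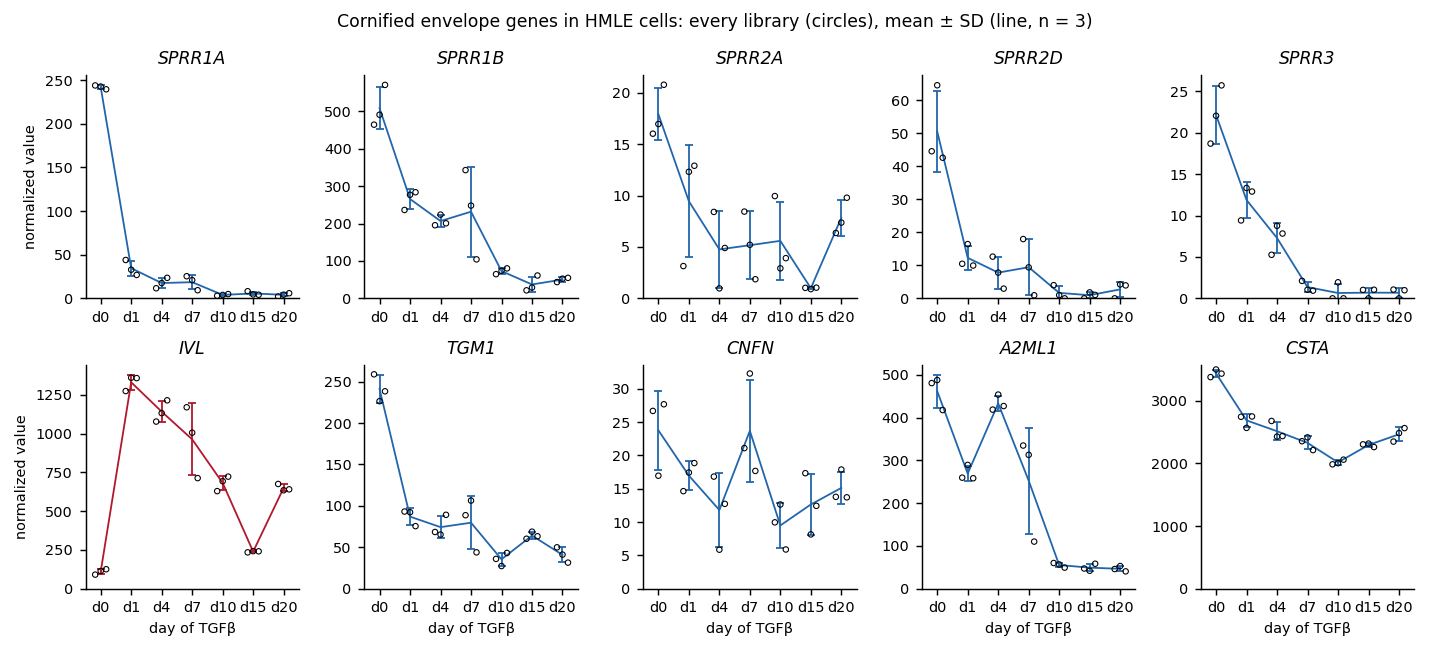
Normalized value (linear axis from 0) of each of the 10 cornified envelope genes in HMLE cells at d0 and on 6 days of TGFβ; circles are the 3 libraries of a timepoint, and lines join the means with SD bars. IVL (red) was 89.9 to 124.7 at d0 and 233.6 to 1361 afterwards, while the SPRR genes and TGM1 (blue) were highest at d0.

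The promoters of IVL and the SPRR genes are shown because genes that moved in opposite directions lie near each other and share sequence features at their starts. On chromosome 1 the RefSeq order is IVL, SPRR5, SPRR4, SPRR1A, SPRR3, SPRR1B, SPRR2D and SPRR2A, followed by SPRR2B, SPRR2E and SPRR2F. SPRR4 lies between IVL and SPRR1A and had at most 3 reads in any library. RefSeq promoter entries on GRCh38.p14 matched 7 of the 10 members, with 8 entries in all, and SPRR2D, TGM1 and CSTA had none. The sequences give the 250 bases before each annotated start, 5′ to 3′ on the gene's strand, with matches to the AP-1 motif TGANTCA in capitals. The motif is its own reverse complement, so each match counts for both strands.
IVL promoter, chr1:152908296-152908545, plus strand: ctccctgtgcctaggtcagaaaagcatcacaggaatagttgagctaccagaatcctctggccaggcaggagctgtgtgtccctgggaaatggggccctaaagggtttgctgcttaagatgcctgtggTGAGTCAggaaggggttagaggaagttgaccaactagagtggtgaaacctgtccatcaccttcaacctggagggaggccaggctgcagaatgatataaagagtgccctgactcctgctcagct
SPRR1A promoter, chr1:152983831-152984080, plus strand: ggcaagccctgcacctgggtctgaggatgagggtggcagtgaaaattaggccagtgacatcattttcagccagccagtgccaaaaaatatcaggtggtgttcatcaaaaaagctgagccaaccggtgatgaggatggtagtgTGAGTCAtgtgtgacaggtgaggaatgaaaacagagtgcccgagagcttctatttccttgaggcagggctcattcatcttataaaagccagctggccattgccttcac
SPRR3 promoter, chr1:153001499-153001748, plus strand: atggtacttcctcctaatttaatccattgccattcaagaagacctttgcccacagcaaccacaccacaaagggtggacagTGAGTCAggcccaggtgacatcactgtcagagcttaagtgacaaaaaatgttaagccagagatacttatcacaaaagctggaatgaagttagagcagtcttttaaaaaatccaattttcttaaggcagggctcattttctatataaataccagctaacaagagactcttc
SPRR1B promoter, chr1:153030953-153031202, plus strand: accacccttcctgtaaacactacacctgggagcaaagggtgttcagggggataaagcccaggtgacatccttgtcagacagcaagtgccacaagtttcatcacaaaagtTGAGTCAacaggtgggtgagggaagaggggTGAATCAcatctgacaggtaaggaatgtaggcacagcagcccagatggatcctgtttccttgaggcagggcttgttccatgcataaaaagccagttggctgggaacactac
SPRR2A promoter, chr1:153057513-153057762, minus strand: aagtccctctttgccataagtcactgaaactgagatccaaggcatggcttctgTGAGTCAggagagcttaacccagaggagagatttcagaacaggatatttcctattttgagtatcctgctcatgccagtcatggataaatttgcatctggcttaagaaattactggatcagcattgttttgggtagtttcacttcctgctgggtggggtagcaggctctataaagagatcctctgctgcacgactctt
The AP-1 letters begin 123 bases before the start in IVL, 108 in SPRR1A, 170 in SPRR3, 141 and 111 in SPRR1B, and 197 in SPRR2A. All 5 chromosome 1 members with an entry thus held the motif, whether their transcript rose or fell, while CNFN on chromosome 19 and both entries of A2ML1 on chromosome 12 did not. Among 35116 RefSeq promoters of the same 250 bases, 6.57% held TGANTCA. The letters TATAAA, searched on both strands, begin 30 bases before the start in IVL and SPRR2A, 29 in SPRR1A and SPRR3, and 31 in 1 of the A2ML1 entries, against 10.7% of all promoters. The GC box letters GGGCGG, also searched on both strands, were in CNFN (4 matches) and in none of the other members' entries, against 42.6% of all promoters. No binding was measured in these libraries, and a match is only a description of the sequence.

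Involucrin, the early scaffold protein, was the only member that rose against d0. Its values were 89.9, 112.8 and 124.7 on d0, 1275, 1361 and 1359 on d1, 1078, 1132 and 1215 on d4, 1170.3, 1006 and 712.9 on d7, 629, 692.8 and 722.6 on d10, 233.6, 241.5 and 240.3 on d15, and 675.2, 634.6 and 640.4 on d20. All 18 treated libraries lay above all 3 untreated ones, with the peak at d1 and the lowest treated values at d15. Changes are given as log2 fold changes from limma on log2(value + 1), fitted over the 13343 genes with a mean of at least 10, and a gene is said to have risen or fallen where the Benjamini-Hochberg adjusted p was under 0.05 and the change at least 2-fold. IVL rose by 3.61 ± 0.124 (SE) at d1 (adjusted p = 3.22e-16), and its changes on the next days were 3.39 (d4), 3.11 (d7) and 2.64 (d10). At d15 its change was 1.13 (adjusted p = 3.54e-08), and 0.98 once the libraries were scaled to equal totals, just under 2-fold. It was 2.58 at d20 (adjusted p = 8.14e-14). A rise on all 6 days was found for 3.38% of the genes tested.

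The time course of IVL was not a steady decline from its peak. Between d10 and d15 it fell by 1.51 on the log2 scale (SE 0.124, adjusted p = 3.44e-10), from 681 ± 47.9 to 238 ± 4.26 (SD, n = 3). Between d15 and d20 it rose again by 1.44 (adjusted p = 1.13e-09). The 3 libraries of d15 overlapped neither neighbour. All 8 proliferation genes tested also fell at d15 against d0, with a median log2 fold change of -1.73, and all 8 rose between d15 and d20; their part in the course of IVL was not tested. Pearson's r of IVL with the proliferation gene MKI67, over timepoint means of log2 values, was 0.22 for all 7 and 0.69 for the 6 treated. Of all genes tested, 8.66% fell at d15 against d0, 10.2% fell between d10 and d15 and 7.55% rose between d15 and d20.

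SPRR1A was left with few reads. Its values were 243.8, 242.6 and 239.4 on d0, 43.9, 32.8 and 26.8 on d1, 11.6, 17.5 and 23.5 on d4, 25.3, 20.9 and 9.31 on d7, 2.99, 3.89 and 4.89 on d10, 8.16, 4.52 and 4.14 on d15, and 2.12, 4.21 and 5.88 on d20. The untreated libraries lay close together and far above all 18 treated ones, and d4 and d7 overlapped. SPRR1A fell on all 6 days, with log2 changes of -2.80 at d1 (SE 0.354, adjusted p = 6.90e-07), then -3.77 (d4), -3.75 (d7), -5.64 (d10), -5.25 (d15) and -5.66 (d20, adjusted p = 7.59e-12). At d20 only 12 reads remained over the 3 libraries, against 802 at d0, which is 1.70% of the untreated level (95% exact counting interval 0.875 to 2.99, for counting error only).

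SPRR1B, its near neighbour and the most abundant SPRR member, passed the thresholds from d4 on. Its values were 464.6, 491.1 and 570.9 on d0, 236.4, 276.9 and 283.8 on d1, 195.6, 224 and 200.7 on d4, 343, 248.1 and 104.2 on d7, 64.7, 73.8 and 80.2 on d10, 21.4, 28.9 and 61.1 on d15, and 43.5, 52.6 and 54.8 on d20. Every treated library was below every untreated one, and d7 spanned a wide range, with its library 3 lowest. At d1 the change was -0.93 (adjusted p = 0.0146), under 2-fold, and -1.13 with rescaled totals. Its change was -1.29 at d4 (adjusted p = 0.000978) and -1.29 at d7, where without library 3 it was -0.79 and under 2-fold. Later changes were -2.79 (d10), -3.87 (d15) and -3.31 (d20, adjusted p = 7.78e-09).

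The balance between these paralogs shifted. SPRR1A made up 32.3% ± 2.52 of the summed values of SPRR1A and SPRR1B at d0, 11.6% ± 3.64 at d1, 5.06% ± 0.667 at d10 and 7.25% ± 2.52 at d20 (SD, n = 3). All d0 shares, from 29.5% upward, lay above every treated share, the highest of which was 27.6% in 1 library of d15 with few reads of both genes. The transcripts share 25 windows of 50 bases, which is 11.3% of those of SPRR1A and 4.38% of those of SPRR1B, so reads there could be split between the genes.

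SPRR2D and SPRR2A, members of the SPRR2 cluster, were below their untreated range in every treated library. SPRR2D had 44.5, 64.5 and 42.5 on d0, 10.5, 16.4 and 9.92 on d1, and 0, 4.21 and 3.92 on d20, and the highest treated library was at 17.9. It fell on all 6 days, with a change of -1.97 at d1 (SE 0.755, adjusted p = 0.0299) and of -4.82 at d15, the lowest day. The d1 call rests on single libraries: without d0 library 1, 2 or 3 or d1 library 1 or 3 the log2 change was -2.04, -1.78, -2.07, -1.88 and -1.84, with limma adjusted p of 0.0549, 0.0903, 0.0502, 0.0744 and 0.0800. SPRR2D passed the filter on low values only through its untreated libraries, so a difference was bound to appear. SPRR2A, with 16, 17 and 20.8 on d0, 3.14, 12.3 and 12.9 on d1, 1.02, 0.9 and 1.04 on d15 and 6.36, 7.37 and 9.79 on d20, did not pass it. No treated library of SPRR2A reached the untreated ones. In a limma fit over 19546 genes without the filter, SPRR2A fell on 4 days, with changes of -1.98 (d4, adjusted p = 0.00457), -1.77 (d7), -1.66 (d10) and -3.24 (d15), while at d1 and d20 the changes were -1.04 and -1.11 (adjusted p = 0.146 and 0.113). In the same fit it rose by 2.14 between d15 and d20 (adjusted p = 0.00232). At d15 it had 3 reads in all, 5.52% of the untreated level (counting interval 1.11 to 16.9).

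Reads of the SPRR2 genes are uncertain by gene, since 32.7% of the 50-base windows of SPRR2A and 26.8% of those of SPRR2D occur in other SPRR2 transcripts. SPRR2E, which is no member, went from 18.9 at d0 to 4.07 at d1 and 0.703 at d20, and SPRR2B, SPRR2C, SPRR2F, SPRR2G and SPRR4 had at most 4 reads in any library.

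SPRR3, a small proline-rich protein typical of internal stratified epithelia, also stayed under the filter. It had 18.7, 22.1 and 25.7 on d0, 9.41, 13.3 and 12.9 on d1, 5.26, 8.76 and 7.83 on d4, and at most 2.11 in any library from d7 on. The steps from d0 to d1, d1 to d4 and d4 to d7 had no overlapping libraries. In the fit without the filter SPRR3 fell from d4 on, with changes of -1.497 at d4 (adjusted p = 0.00436) and -3.85 at d20 (adjusted p = 1.17e-07), and the d1 change of -0.85 did not pass (adjusted p = 0.112). The 2 reads left at d20 were 3.11% of the untreated level (counting interval 0.370 to 11.7).

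TGM1, the membrane-anchored transglutaminase that crosslinks envelope precursors in keratinocytes, had 259, 226.5 and 238.4 on d0, 93.1, 92.3 and 75.4 on d1, 68.4, 65.2 and 89.1 on d4, 88.7, 106.3 and 43.7 on d7, 35.8, 27.2 and 43 on d10, 60.2, 68.7 and 63.2 on d15, and 49.8, 41 and 31.3 on d20. The highest treated library, at 106.3, was below the lowest untreated one, at 226.5, and the lowest values were at d10. TGM1 fell on all 6 days, with changes of -1.47 at d1 (SE 0.239, adjusted p = 2.00e-05), then -1.70 (d4), -1.68 (d7), -2.76 (d10), -1.90 (d15) and -2.56 (d20, adjusted p = 5.90e-09). Falls on all 6 days were found for 1.06% of the genes tested and for SPRR1A and TGM1 among the members, leaving out SPRR2D, whose entry into the test rested on its untreated libraries.

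CNFN encodes cornifelin, a small envelope constituent, and its values were low and overlapped. They were 26.7, 17 and 27.7 on d0, 14.6, 17.4 and 18.9 on d1, 16.8, 5.84 and 12.7 on d4, 21.1, 32.3 and 17.7 on d7, 9.95, 12.6 and 5.87 on d10, 17.3, 8.14 and 12.4 on d15, and 13.8, 17.9 and 13.7 on d20. Of 18 treated libraries 11 lay below every untreated one and 1, at d7, above. CNFN fell at d4 with a change of -1.03 (SE 0.350, adjusted p = 0.0121) and at d10 with -1.27 (adjusted p = 0.00309). Its other changes were -0.44 (d1), -0.02 (d7), -0.89 (d15) and -0.60 (d20). The d4 call was lost without d0 library 1 (-0.94), d0 library 3 (-0.91) or d4 library 2 (-0.63), the d10 call without d10 library 3 (-0.99), and the d15 change became a call without d0 library 2 (-1.11) or d15 library 1 (-1.13). With a pseudocount of 10 the d4 (-0.65) and d10 (-0.79) calls were lost, and with quantile normalization the d10 call (-0.99). The d15 change became a call with rescaled totals (-1.04) and with quantile normalization (-1.09).

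A2ML1, a secreted protease inhibitor of the alpha-2-macroglobulin family, was lower at d1, near its untreated level at d4 and far lower from d10 on. Its values were 480.6, 487.7 and 417.5 on d0, 259.4, 289.2 and 258 on d1, 418.6, 453.8 and 426.9 on d4, 334.5, 312.8 and 109.8 on d7, 59.7, 56.4 and 48.9 on d10, 46.9, 41.6 and 58 on d15, and 45.6, 52.6 and 40.1 on d20. The d4 libraries overlapped the untreated ones and lay above all d1 libraries, and those of d10, d15 and d20 lay below every earlier library. At d1 the change was -0.78 (SE 0.255, adjusted p = 0.0125), under 2-fold, and at d4 it was -0.09 (adjusted p = 0.764). The d7 change of -1.03 (adjusted p = 0.00135) was barely 2-fold: it was -0.51 without d7 library 3, -0.996 without d0 library 1 and -0.99 without d0 library 2, and the edgeR and DESeq2 estimates were -0.91 and -0.88. A2ML1 fell at d10, d15 and d20, with changes of -3.05, -3.23 and -3.30 (adjusted p = 2.78e-10 at d20).

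CSTA, the cysteine protease inhibitor cystatin A, was the most abundant member and stayed within 2-fold of its untreated level. It ranged from 3381 to 3503 at d0 and from 1986 to 2752 in treated libraries, so the groups did not overlap. Its changes of -0.36 (d1), -0.45 (d4), -0.56 (d7), -0.77 (d10), -0.58 (d15) and -0.48 (d20) had a SE of 0.0442 and adjusted p between 1.79e-12 and 5.55e-07, and none was 2-fold. At d10, the lowest day, CSTA kept 58.6% of its untreated level.

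Every untreated library exceeded all 18 treated ones for SPRR1A, SPRR1B, TGM1 and CSTA, a pattern held by 9.98% of the genes tested. SPRR2D held it too, but its entry into the test rested on its untreated libraries. SPRR2A and SPRR3 also held it, but they were not among the genes tested, so that share does not cover them. Per kilobase of the longest GENCODE transcript, the untreated levels were 4190 ± 74.5 for CSTA, 821 ± 89.3 for SPRR1B, 87.6 ± 7.32 for A2ML1, 86.9 ± 5.92 for TGM1, 63.1 ± 15.2 for SPRR2D, 50.7 ± 8.21 for IVL, 45.5 ± 11.3 for CNFN, 25.3 ± 3.56 for SPRR2A and 22.5 ± 3.57 for SPRR3 (SD, n = 3). At d1 IVL was at 618 ± 22.7 per kilobase, above the 429 ± 41.3 of SPRR1B and below the 3276 ± 127 of CSTA. SPRR1A was left out of this order because its longest transcript model holds only 270 bases.

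Against d0, the tested members that rose and fell numbered, out of 8, 1 and 3 on d1, 1 and 6 at d10, and 1 and 5 on each of the other days. The member that rose was IVL each time, and SPRR2D is among those that fell each time, a fall that the filter made bound to appear. Among all genes tested, 6.47% rose and 3.87% fell on d1, 9.68% rose and 5.03% fell on d4, 8.79% rose and 2.93% fell on d7, 6.94% rose and 7.34% fell on d10, 11.7% rose and 8.66% fell on d15, and 7.51% rose and 4.72% fell on d20. The median log2 change of the 8 was -0.86 (d1), -1.16 (d4), -1.16 (d7), -2.77 (d10), -2.56 (d15) and -2.93 (d20). SPRR2D enters each of these medians with a fall that was bound to appear. The median of all genes was between -0.00 and 0.03. With rescaled totals that median of all genes was -0.14 to -0.20. At d7 the count that fell was 3 without library 3, since SPRR1B and A2ML1 were then under 2-fold.

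**Figure D2:**
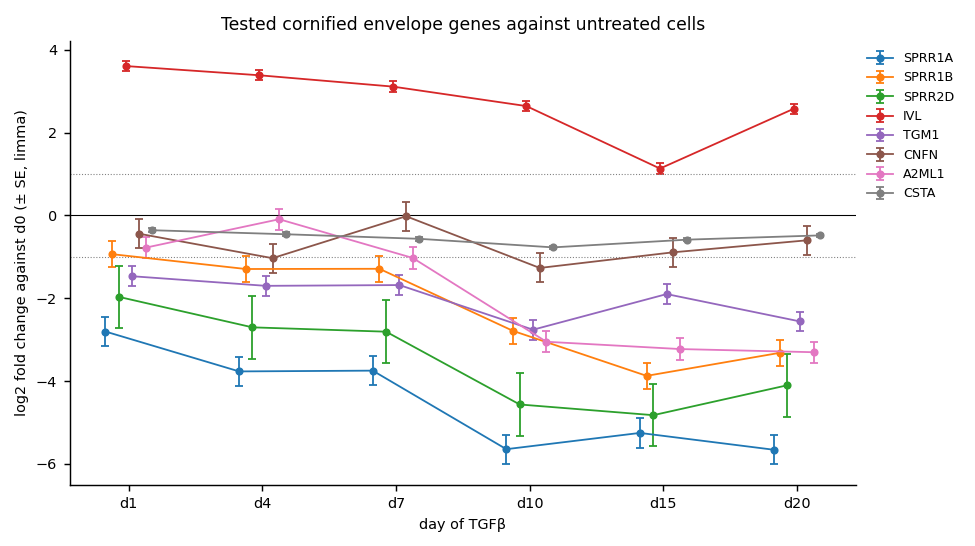
Log2 fold change against d0 with its SE (limma) for the 8 tested members on each day of TGFβ; dotted lines mark a 2-fold change. IVL lies between 1.13 and 3.61 on every day, CSTA between -0.77 and -0.36, and the other genes spread downward, SPRR1A to -5.66 at d20.

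Between d1 and d4 no tested member passed, against 4.19% of genes that rose and 1.98% that fell. SPRR1A, at -0.96 in that step (adjusted p = 0.0217), passed 2-fold without d1 library 3 (-1.13) or d4 library 3 (-1.19). Between d4 and d7 CNFN alone rose, from 11.8 to 23.7 (adjusted p = 0.0199), and not without d4 library 2 (0.62) or d7 library 2 (0.78), against 2.27% of genes that rose and 1.51% that fell. A2ML1 changed by -0.94 in this step (adjusted p = 0.00442), and by -1.22 and -1.17 without d7 library 1 or 2.

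Between d7 and d10, 6 of 8 tested members fell and none rose, where 9.09% of all genes fell and 3.63% rose. The count of 6 depended on the scale: it was 2 with a pseudocount of 10, 3 with quantile normalization and 4 to 6 with each library left out. The changes were -2.02 for A2ML1 (adjusted p = 4.52e-07), -1.90 for SPRR1A (adjusted p = 6.59e-05), -1.499 for SPRR1B (adjusted p = 0.000237), -1.25 for CNFN (adjusted p = 0.00320) and -1.08 for TGM1 (adjusted p = 0.000404). The d7 and d10 libraries of these 5 did not overlap. Without d7 library 3 the log2 changes of A2ML1, SPRR1B and CNFN were -2.54, -1.99 and -1.43. TGM1 was under 2-fold without d7 library 1 (-0.95), d7 library 2 (-0.82) or d10 library 2 (-0.91), and CNFN without d10 library 3 (-0.97). SPRR2D changed by -1.76 (adjusted p = 0.0429) with overlapping libraries, and its adjusted p exceeded 0.05 without d0 library 1, 2 or 3 (0.0511, 0.0501 and 0.0509), d4 library 2 (0.05002), d7 library 1 or 2 (0.240 and 0.126) or d10 library 2 or 3 (0.0887 and 0.199). Without d7 library 3 the change of SPRR2D was -2.71 (adjusted p = 0.000189). IVL and CSTA changed by -0.47 and -0.21 in this step, with adjusted p = 0.00193 and 0.000289.

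Between d10 and d15 SPRR1B fell further, with a change of -1.09 (adjusted p = 0.00354), though it was under 2-fold without d15 library 1 (-0.77) or 2 (-0.98). TGM1 changed by 0.86 in that step (adjusted p = 0.00251) and by 1.011 without d10 library 3. IVL was the other tested member that fell in that step. Among all genes 12% rose there and 10.2% fell. Between d15 and d20 IVL alone among the tested members passed, as a rise, and TGM1 changed by -0.66 (adjusted p = 0.0167). Of all genes 7.55% rose and 7.43% fell in this step.

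The other transglutaminases and envelope genes did not follow TGM1 and the SPRR genes as a block. TGM2, the widely expressed tissue transglutaminase, went from 231 ± 14.9 at d0 to 24002 ± 259 at d1 and 11203 ± 393 at d20 (SD, n = 3), a rise of 6.69 at d1 (SE 0.0909, adjusted p = 3.61e-23) and 5.59 at d20. It was lowest among the treated days at d15 (6553 ± 75.2), as IVL was. TGM4 fell at d4 (-1.18) and d15 (-1.16), and the other 5 genes of that list did not pass the filter. Over the 7 timepoint means of log2 values, Pearson's r between IVL and TGM2 was 0.92, and the points share libraries and size factors.

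**Figure D3:**
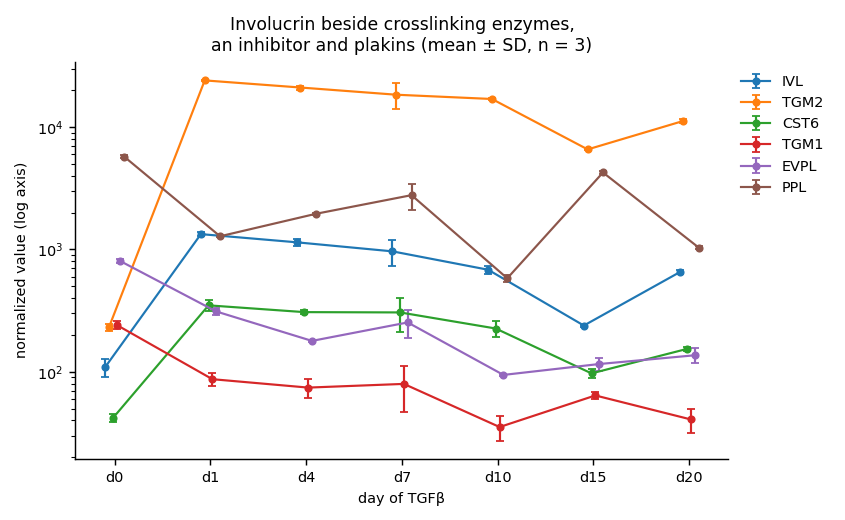
Normalized value on a log axis (mean and SD of 3 libraries) of IVL, the crosslinking enzymes TGM1 and TGM2, the inhibitor CST6 and the plakins EVPL and PPL at each timepoint. IVL, TGM2 and CST6 rise at d1 and dip at d15, while TGM1 and EVPL lie below their d0 level throughout and PPL at d15 is near it (4245 against 5709).

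Of 36 further envelope structural genes in the table, 10 were tested and 17 had at most 3 reads in every library, loricrin (listed as LOR) with at most 1. Those that fell on all 6 days were SBSN (suprabasin; -2.47 at d1 and -5.03 at d20), PI3 (elafin, an inhibitor crosslinked into the envelope; -1.02 at d1 and -3.67 at d15) and EVPL (envoplakin; -1.36 at d1 and -3.07 at d10). PPL (periplakin, the partner of envoplakin) fell on every day but d15, with changes of -2.16 at d1, -3.30 at d10 and -0.43 at d15. SCEL (sciellin) fell from d4 on, most at d15 (-2.81). LCE3D, a late envelope gene that passed the filter only through treated libraries, rose on all 6 days, from 2.05 ± 2.25 at d0 to 39.7 ± 6.25 at d1 and 51.4 ± 1.76 at d20, and ECM1 rose on every day but d15, by 1.61 at d1 and 1.73 at d20. LCE1C passed the filter on low values only through d7, d15 and d20, with means of 18.3 to 20.9 there and 3.29 to 8.85 on the other days, and its changes were between -1.27 and 1.12. FLG (filaggrin) fell at d4 alone (-1.22), and TCHH did not pass. In numbers, 2 rose and 4 fell at d1, and 3 rose (2 with rescaled totals) and 5 fell at d20, with medians of -0.80 and -0.64. The rises include LCE3D on both days and LCE1C at d20, which passed the filter only through treated libraries, and both enter the medians. Among all genes tested, 6.47% rose and 3.87% fell at d1, and 7.51% rose and 4.72% fell at d20.

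Protease inhibitors and proteases of differentiation also went both ways. CST6 (cystatin M/E, an inhibitor of cathepsins in the epidermis) rose on all 6 days, from 41.8 ± 3.18 at d0 to 349 ± 35.2 at d1 and 97 ± 8.40 at d15 (SD, n = 3). SERPINB13 fell on all 6 days, most at d10 (-3.85). CASP14, the caspase of cornification, fell at d10, d15 and d20 (-3.54 at d15), and SERPINB2 on the same days (-3.78 at d15). Of the 10 tested, 1 rose and 2 fell at d1 and 1 rose and 6 fell at d20, with a median of -1.83.

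Suprabasal keratins and lipid envelope enzymes held further genes that fell. KRT13, a suprabasal keratin of internal epithelia, went from 582 at d0 to 42.3 at d1 and 3.94 at d10, with log2 changes of -3.76 and -6.97. DSC1 (desmocollin 1) changed by -1.81 at d1 and -2.59 at d20, and KRT80 by -1.37 at d4 and -1.77 at d15, all past the thresholds. Among 5 tested genes of that list, 2 fell at d1 and 2 at d20. SULT2B1 (cholesterol sulfotransferase) fell on all 6 days (-2.30 at d1 and -4.10 at d20), ALOX12B (a lipoxygenase of the lipid envelope) on every day but d15 (-2.34 at d1 and -1.75 at d20), and ABCA12 (a lipid transporter) at d1, d10 and d20 (-2.17 at d10). Of the 7 lipid enzymes tested, 3 fell at d1 and 3 at d20, and their median at d20 was 0.03.

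Transcription factors of terminal differentiation included 5 that fell on all 6 days and 1 that rose on all 6. Of all genes tested, 1.06% fell and 3.38% rose on all 6. Those that fell were ZNF750 (-3.27 at d1 and -5.57 at d10), GRHL3 (-1.99 and -4.34), ELF3 (-2.55 and -4.15), GRHL1 and CEBPA. PRDM1, a repressor also known as BLIMP1, rose by 2.42 at d1 and 3.10 at d7, and MAF rose on every day but d10, by 3.96 at d15. Of 17 tested, 2 rose and 6 fell at d1, 1 rose and 10 fell at d10, and 3 rose and 9 fell at d20. The shares of all genes tested that rose and fell were 6.47% and 3.87% at d1, 6.94% and 7.34% at d10, and 7.51% and 4.72% at d20. Between d7 and d10, 11 of the 17 fell and none rose, where 9.09% of all genes tested fell and 3.63% rose. Between d10 and d15, 12 of the 17 rose and none fell, where 12% of all genes tested rose and 10.2% fell. Of the 8 tested members none passed as risen in that step, which is near the share of all genes. TGM1 changed by 0.86 there (limma adjusted p = 0.00251), under 2-fold.

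**Figure D4:**
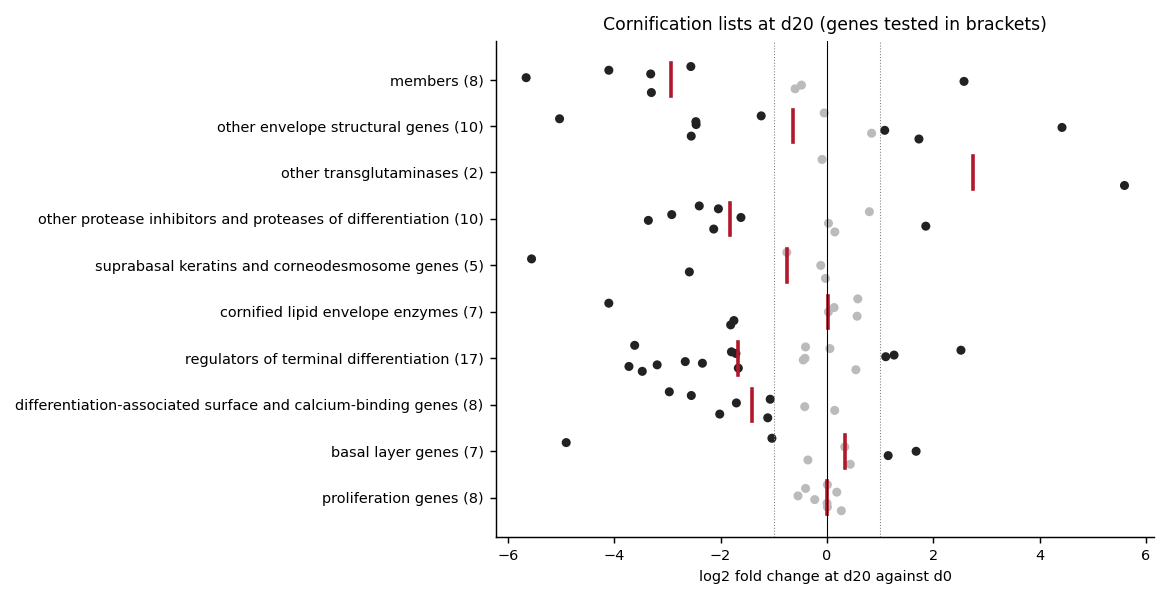
Log2 fold change at d20 against d0 of each tested gene in the cornification lists; dark points passed the adjusted p and 2-fold thresholds, grey ones did not, red bars are medians, and dotted lines mark a 2-fold change. The members' median is -2.93, with IVL at 2.58, and TGM2 lies at 5.59 among the transglutaminases. SPRR2D, which passed the filter only through its untreated libraries, enters the members' median.

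Of 8 tested calcium-binding and surface genes of differentiation, 2 fell on d4 and d7, 5 on d1 and d10, 4 on d15 and 6 on d20. LY6D, which fell on d1, rose on d15 (1.76). S100A9 fell on all 6 days (-1.34 at d1 and -3.59 at d15), as did S100A8 (-1.82 at d1 and -2.55 at d20). CLCA2 fell at d1 (-1.36) and most at d10 (-2.46) and was at 0.16 at d7. Basal layer genes went both ways: KRT15 fell on all 6 days (-4.10 at d1 and -4.90 at d20), ITGB4 rose by 1.86 and 1.68, and COL17A1 rose at d4, d7 and d15. Of the 7 tested, 2 rose and 1 fell at d1 and 2 rose and 2 fell at d20.

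The genes whose course was most like the members' were sought over the 7 timepoint means of log2 values, among 5220 genes that spanned at least 1 log2 unit, against the mean of the 8 tested members' scaled profiles. They were DPCR1 (r = 0.99), SPINK5 (0.99), LOC100288198 (0.99), IL1RN (0.98) and KLK7 (0.98). SPINK5, an inhibitor of epidermal kallikreins, went from 94.8 at d0 to 12.5 at d10, and KLK7, a kallikrein of the cornified layer, from 516 to 16.4. Over the 21 libraries the leading 5 were KLK7, IGFBP2, IL1RN, MPZL2 and S100A9, so KLK7 and IL1RN were shared. Among the members, the 21 pairs without IVL had r between 0.50 and 0.98 over the 7 means, and the 7 pairs with IVL between -0.56 and 0.04.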

How the data were processed

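RNA-seq of HMLE cells at 7 timepoints, 3 libraries each, was analysed. The deposited values are a normalized signal, kept to 2 decimals, and how it was normalized is not given in the sources used here. The values are whole multiples of 1 step per library, the form of reads over a size factor. Whole reads were recovered for 100% of values up to 500 in every library (tolerance 0.0055), with totals of 18847917 to 22667754. The submitters' processing notes name hg19, STAR 2.7 and Salmon 1.4, with no role or order. Column names give the timepoint and no replicate number, and 0 columns belonged to other samples.

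The 10 members and the gene lists were chosen with earlier results of these data known. The 13343 genes whose mean reached 10 entered a two-sided limma fit (version 3.58.1, R 4.3.3, with trend) of log2(value + 1), with all 7 timepoints in one fit, each treated day against d0 and each day against the one before. P-values were adjusted by Benjamini-Hochberg within a contrast over all genes tested, with a threshold of 0.05 and at least 2-fold. Fold changes are on the log2(value + 1) scale, which understates changes of low genes. Of the members 8 passed the filter, and SPRR2A and SPRR3 were taken from the fit over 19546 genes without it. Ratios of summed reads have exact conditional binomial 95% intervals, for counting error only, and a library with at most 3 reads was treated as at the floor. The procedure was checked on simulated data. Genes named are all members, up to 3 genes per list with the largest change among those passing, the treatment and cell type markers, those completing a count of 5 or fewer, and the 5 with the most similar profile. Genes such as CST6, EVPL, PPL, SCEL, ECM1, PRDM1, MAF and SPRR2E, and those most like IVL, were named after their values were seen.

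Alternatives were a pseudocount of 10, no filter, quantile normalization, libraries rescaled to the same total, fits of only 2 groups, edgeR 4.0.16 (quasi-likelihood) and DESeq2 1.42.0 on recovered reads, no minimum fold change, profiles over 21 libraries and each library left out. Transcript lengths and 50-base windows came from GENCODE 29 and promoters from RefSeq (GRCh38.p14), which is not the build named for the files, and no coordinates were taken from the files. Symbols SPRR5, LORICRIN and CTSV were not analysed here. A treatment marker is not reported here. Plots used matplotlib 3.10.9 (Python 3.11.15).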

Additional observations from a re-analysis of the deposited data

How the results depend on the processing

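No paired analysis was possible because replicate numbers are missing from the column names, and no fit with a replicate block was run. Of 638 recomputed counts of members, 610 stayed within 1.5 times the reported count. Without a minimum fold change, 6 members were lower at d1, 1 was higher and 1 lower between d1 and d4, 2 lower between d4 and d7, 2 higher between d10 and d15, and 2 higher and 1 lower between d15 and d20. With totals rescaled, 0 members were higher at d15, where IVL was at 0.98. Quantile normalization gave 1 member lower between d1 and d4 and 3 lower between d7 and d10. A pseudocount of 10 gave 0 higher between d4 and d7, 2 lower between d7 and d10 and 1 lower between d10 and d15. The fit of only 2 groups gave 0 higher between d4 and d7. Without the filter 1 was lower between d4 and d7 and 2 were higher between d15 and d20. edgeR and DESeq2 each gave 1 lower between d10 and d15.

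With each library left out in turn, the members that were lower numbered 3 to 5 at d7, 0 to 1 between d1 and d4, 0 to 1 between d4 and d7 and 1 to 2 between d10 and d15, and those higher 0 to 1 between d4 and d7 and 0 to 1 between d10 and d15. The change of CNFN at d7 ranged from -0.26 to 0.16, on both sides of 0, and no other member's log2 fold change among those reported turned its sign. Of 1972 recomputed log2 fold changes, 1887 kept direction and side of the thresholds, 51 no longer passed, 30 newly passed and 4 turned, and the causes were not tested. Depth limited SPRR2A, SPRR2D and SPRR3, which had 2 to 3 reads in all at their lowest day.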

Other observations

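The genes whose timepoint means were most like those of IVL, looked for after its course was seen, were NOX5 (r = 0.99 over the 7 means of log2 values), CST6 (0.99), KIAA1755 (0.98), PLD5 (0.97) and AFAP1L2 (0.96), out of 5220 genes. NOX5, a calcium-dependent NADPH oxidase, went from 14 at d0 to 73.5 at d1, 29.2 at d15 and 45.1 at d20. KIAA1755 went from 5.50 at d0 to 150.3 at d1, 20.7 at d15 and 74.6 at d20, and PLD5 from 13.1 to 121 at d1 and 34.5 at d15. AFAP1L2, an adaptor of actin filaments, went from 1350 at d0 to 3571 at d1 and 2126 at d15. Over the 21 libraries KIAA1755, CST6 and PLD5 were again among the leading 5, with IVNS1ABP and the envelope-associated gene ECM1. All of these values share libraries and size factors with IVL.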
